A study of Saccharomyces cerevisiae with 12 samples.

Results

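The 10 genes described here encode the enzymes of the shikimate pathway and of tryptophan synthesis in the budding yeast *Saccharomyces cerevisiae*. They were selected by name from the 7130 genes listed in each FPKM table (fragments scaled by gene length and by a measure of library size). All 10 were found in both tables. They are *ARO3*, *ARO4*, *ARO1* and *ARO2* of the common pathway, *ARO7* of the branch to phenylalanine and tyrosine, and *TRP2*, *TRP3*, *TRP4*, *TRP1* and *TRP5* of the branch to tryptophan.

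The study compared mRNA from a haploid strain in which the promoter of *GLN4*, the gene for glutaminyl-tRNA synthetase, was replaced by a tet-off promoter (tetO-*GLN4*, labelled McFY) with mRNA from its parent BY4742, the wild type. The tet-off promoter is silenced by doxycycline. The 4 groups were tetO-*GLN4* with 1 µg/ml doxycycline, tetO-*GLN4* untreated, wild type with 1 µg/ml doxycycline, and wild type untreated. Each group had 3 cultures grown from independent colonies in rich YPD medium to mid-log phase, 12 samples in all. Both strains are *MATα* with mutations in *HIS3*, *LEU2*, *LYS2* and *URA3*, and none of the 10 genes is among the mutated loci. The tetO-*GLN4* line carries the same markers beside its cassette.

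Shikimate synthesis begins when phosphoenolpyruvate and erythrose 4-phosphate condense to a sugar acid that is closed and rebuilt into chorismate, the branch point of all aromatic amino acids. Fungi join the middle steps in a single long polypeptide, and animals lack the pathway. In yeast many amino acid genes, including several of these, are textbook targets of Gcn4, an activator whose protein is made when uncharged tRNA activates the kinase Gcn2. Glutaminyl-tRNA synthetase is the enzyme that charges the glutamine tRNAs.

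Gcn4 is known to bind DNA as a dimer at sequences with the core TGACTC, so the 300 bases before each start codon were searched for it on both strands of the R64 genome (RefSeq). Of the 10 genes 4 held it, *ARO1*, *TRP2*, *TRP3* and *TRP4*, against 7.77% of 6001 genes with a full window. In *ARO4* a match lay 312 bases before the start codon, outside that window, and within 500 bases 5 of the 10 genes and 12.7% of 6000 genes held the core. The stretches are shown because these are 5 of the 7 genes that rose in tetO-*GLN4* (below). Each is 30 bases on the strand of its gene, 5′ to 3′, with the match in capitals.
ARO4, chrII:718289-718318, reverse strand: gttactgcgaaaTGACTCaacgatgaaatg
ARO1, chrIV:704249-704278, forward strand: ttgtcatgcataTGACTCatcccgaacatg
TRP2, chrV:337775-337804, forward strand: acagtgatttgcTGACTCattacgattttt
TRP3, chrXI:38259-38288, reverse strand: tcaatggctcgtTGACTCattctaatctat
TRP4, chrIV:1184570-1184599, forward strand: acctacgcagatTGACTCtctaaaaaatga
TRP4, second match, chrIV:1184585-1184614, forward strand: ctctctaaaaaaTGATTCAtgaccagacaa

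Counted from the first base of the match, the core stood 223 bases before the start codon of *ARO1*, 162 before *TRP2*, 165 before *TRP4* and 123 before *TRP3*. In *ARO1*, *TRP2* and *TRP3* it ran on into the longer form TGACTCA, which 2.62% of genes held within 300 bases. *TRP4* lacked that form but had a second match, TGATTCA, 150 bases before its start codon. That match belongs to the looser form TGANTCA, which the same 4 genes and 6.78% of all genes held, and which overlaps TGACTC in the other 3. A match is a run of letters, and its absence says only that these letters are not in the window.

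All 10 genes have a single coding exon in the R64 annotation, and for 9 of them the locus in the files has the same coordinates as the annotated gene. The exception was *TRP1*, whose locus in the files, chromosome IV 461842 to 462602, runs past the annotated end at 462516 and takes in the overlapping *YDR008C*. *TRP2* and *TRP4* share their loci with the short open reading frames *YER090C-A* and *YDR354C-A* on the other strand. The library kit marked strand, but the strand setting used in counting is not given in the sources used here, so reads of these overlapping pairs may have been divided between them. The overlapping frames had wide intervals, and none of the 3 was called.

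The files hold 1 FPKM per gene and condition, in which the authors combined the 3 cultures, with a 95% interval. The variation from culture to culture is therefore not known here, and no p-value is given. A gene is said to have risen or fallen where the intervals of the 2 conditions lay apart, and SDs were taken from the intervals. The strains were normalized separately, so levels are compared within a strain and the strains are compared by their ratios. Of the 10 genes all had a usable value in all 4 conditions, with SDs of 9.85% to 11.9% of the FPKM.

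The labels were checked with *GLN4*. It had 30.5 FPKM in tetO-*GLN4* with doxycycline, against 199 FPKM in the wild type with doxycycline and 199 FPKM in the untreated wild type. Untreated tetO-*GLN4* cells are listed at 0 with a status that marks a failed estimate at very high coverage, so no fold can be given. *LEU2*, *LYS2* and *URA3* were listed at 0 in all 4 conditions, and *HIS3* was listed above 0 in all 4. The genes specific to α cells were low in tetO-*GLN4* with doxycycline: *MF(ALPHA)1* had 191 FPKM with doxycycline and 11956 FPKM untreated, *MF(ALPHA)2* 55.4 FPKM with doxycycline and 4373 FPKM untreated, and *STE3* 11.5 FPKM with doxycycline and 611 FPKM untreated. These 3 of 3 genes fell in tetO-*GLN4*, and none of them was called in the wild type. The **a**-cell genes *MFA1* and *STE2* had higher values with doxycycline in tetO-*GLN4*, but their intervals overlapped and they were not called. *MFA1* had 141 FPKM with doxycycline and 72.2 FPKM untreated (log2 0.97), and *STE2* 10.9 FPKM with doxycycline and 7.10 FPKM untreated (log2 0.62). Whether the change in the α-cell genes has a part in the values of the pathway genes was not tested. The summed FPKM of all genes was 1.70e+06 with doxycycline and 2.62e+06 untreated in tetO-*GLN4*, while the median log2 ratio over 6553 genes was 0.01.

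In tetO-*GLN4*, 7 of the 10 genes rose with doxycycline, none fell and 3 were not called. Those that rose were *ARO3*, *ARO4*, *ARO1*, *TRP2*, *TRP3*, *TRP4* and *TRP5*; those not called were *ARO2*, *ARO7* and *TRP1*. Over all 6553 genes with a usable ratio, 15% rose by this rule and 16.1% fell. At least 2-fold higher were 5 of the 10 genes, against 10.5% of all genes. The log2 ratios of the 10 genes ran from 0.12 to 2.17 with a median of 1.03, and all 10 were above 0.

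**Figure D1:**
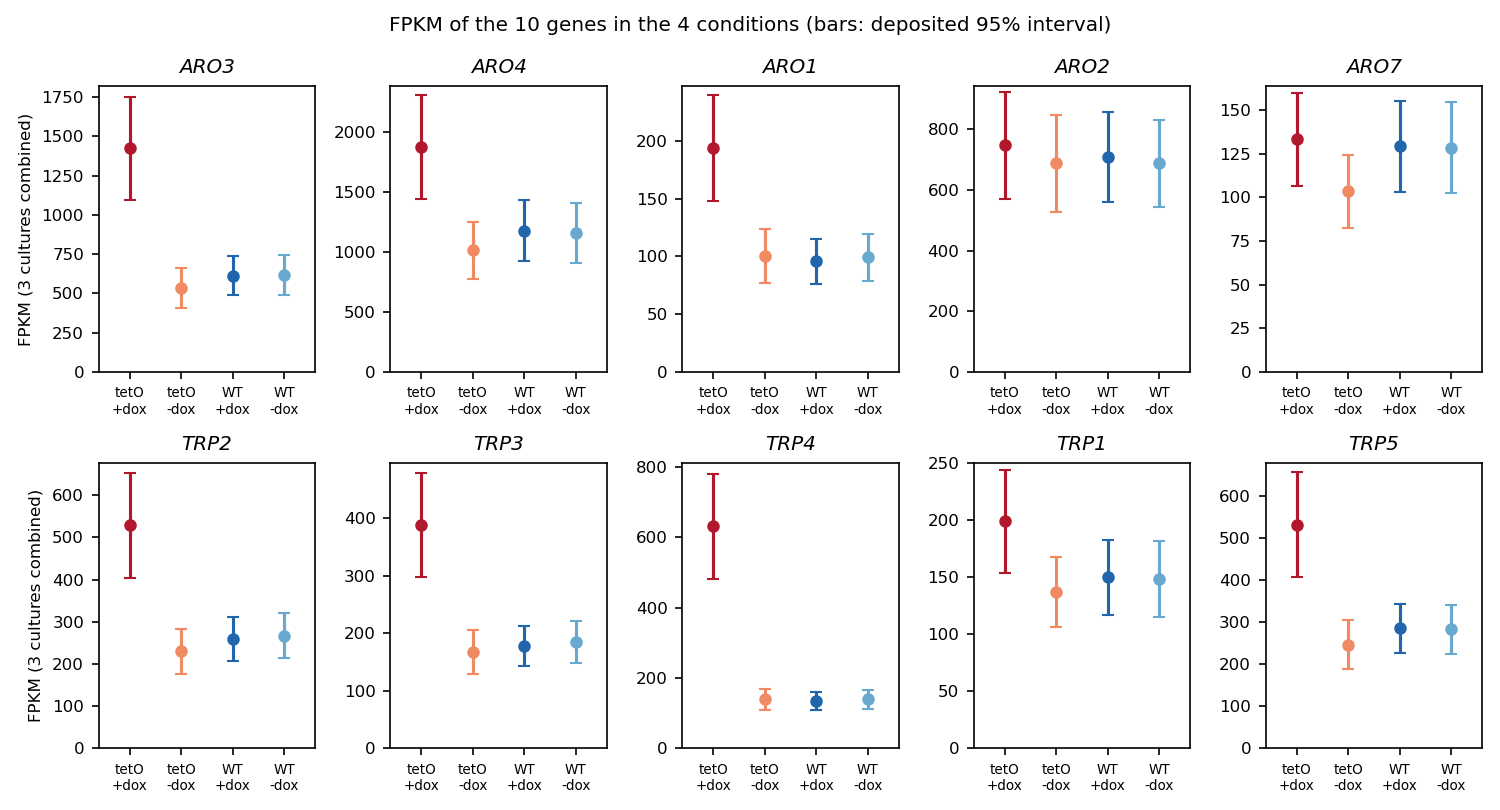
FPKM of each of the 10 genes (vertical axis, starting at 0) in tetO-*GLN4* with (+dox) and without (-dox) doxycycline and in the wild type (WT) with and without it; points are the authors' combined values of 3 cultures and bars the deposited 95% intervals. In 7 panels the doxycycline-treated tetO-*GLN4* interval lies above the untreated one, and the wild-type pairs overlap in all 10.

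The pathway opens with 3-deoxy-D-arabino-heptulosonate 7-phosphate (DAHP) synthase, present as 2 isozymes that differ in the amino acid that inhibits them, phenylalanine for Aro3 and tyrosine for Aro4. *ARO3* (YDR035W, chromosome IV 521816 to 522928, forward strand) had 1423 FPKM (95% interval 1092 to 1754) with doxycycline and 537 FPKM (410 to 664) untreated in tetO-*GLN4*. It rose 2.65-fold, a log2 ratio of 1.41 ± 0.24 (SD). Wild-type cells had 613 FPKM with doxycycline and 620 FPKM untreated. The gene was high in doxycycline-treated tetO-*GLN4* alone, and the wild-type intervals overlapped.

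*ARO4* (YBR249C, chromosome II 716882 to 717994, reverse strand) was the most abundant of the 10 in every condition. It had 1877 FPKM (1444 to 2310) with doxycycline and 1015 FPKM (776 to 1254) untreated in tetO-*GLN4*, and rose 1.85-fold (log2 0.89 ± 0.24). The wild type had 1179 FPKM with doxycycline and 1160 FPKM untreated. As for *ARO3*, the intervals lay apart in tetO-*GLN4* and overlapped in the wild type.

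The ratio of *ARO4* to *ARO3* was 1.32 ± 0.22 with doxycycline and 1.89 ± 0.32 untreated in tetO-*GLN4*, a log2 change of -0.52 ± 0.34 that was not past 2 SDs (interval -1.19 to 0.16). In the wild type the ratio was 1.92 with doxycycline and 1.87 untreated. The isozymes thus could not be told apart in the size of their response at this precision. Both proteins have 370 residues in the R64 sequence, of which 226 are identical (59.9% of the alignment), and the longest run of bases that the 2 coding sequences share is 17.

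*ARO1* (YDR127W, chromosome IV 704484 to 709250, forward strand) encodes the long polypeptide that carries the middle steps from DAHP to enolpyruvylshikimate phosphate. It had 194 FPKM (148 to 239) with doxycycline and 101 FPKM (77.0 to 124) untreated in tetO-*GLN4*, and rose 1.93-fold (log2 0.95 ± 0.24). The wild type had 95.6 FPKM with doxycycline and 99.1 FPKM untreated. At 1588 codons it is the longest of the 10 genes, and its level per length was lowest or next to lowest of the 10 in each condition.

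*ARO2* (YGL148W, chromosome VII 226399 to 227529, forward strand), which encodes chorismate synthase, had the lowest log2 ratio of the 10 in tetO-*GLN4*. It had 747 FPKM (572 to 923) with doxycycline and 687 FPKM (526 to 849) untreated in tetO-*GLN4*, a log2 ratio of 0.12 ± 0.24. The wild type had 708 FPKM with doxycycline and 687 FPKM untreated. The intervals overlapped in both strains, and the interval of the tetO-*GLN4* log2 ratio ran from -0.36 to 0.60. That ratio was not over 2 SDs from those of *ARO7* and *TRP1*, the other genes not called.

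*ARO7* (YPR060C, chromosome XVI 674861 to 675631, reverse strand) encodes chorismate mutase, which commits chorismate to phenylalanine and tyrosine and is activated by tryptophan. It had 133 FPKM (106 to 160) with doxycycline and 103 FPKM (82.5 to 124) untreated in tetO-*GLN4*, a log2 ratio of 0.37 ± 0.21 that was not called. Wild-type *ARO7* stood at 129 FPKM with doxycycline and 128 FPKM untreated.

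The other exit from chorismate is anthranilate synthase, made of Trp2 and the glutamine-using subunit Trp3, which also carries the indole-glycerol-phosphate synthase step. *TRP2* (YER090W, chromosome V 337949 to 339472, forward strand) had 529 FPKM (405 to 654) with doxycycline and 230 FPKM (177 to 283) untreated in tetO-*GLN4*. It rose 2.30-fold (log2 1.20 ± 0.24), and the wild type had 260 FPKM with doxycycline and 267 FPKM untreated.

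*TRP3* (YKL211C, chromosome XI 36699 to 38153, reverse strand) had 389 FPKM (298 to 479) with doxycycline and 168 FPKM (130 to 205) untreated in tetO-*GLN4*. It rose 2.32-fold (log2 1.21 ± 0.23), against 178 FPKM with doxycycline and 184 FPKM untreated in the wild type. The subunit genes kept nearly the same proportion: *TRP3* over *TRP2* was 0.734 ± 0.122 with doxycycline and 0.729 ± 0.118 untreated in tetO-*GLN4*. The log2 change of that ratio was 0.01 ± 0.33 (interval -0.66 to 0.68), and in the wild type the ratio was 0.686 with doxycycline and 0.689 untreated.

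*TRP4* (YDR354W, chromosome IV 1184747 to 1185889, forward strand) encodes anthranilate phosphoribosyltransferase and had the steepest response of the 10. It had 630 FPKM (482 to 779) with doxycycline and 140 FPKM (110 to 170) untreated in tetO-*GLN4*, a 4.51-fold rise (log2 2.17 ± 0.23). Of the 6553 genes 128 had a larger log2 ratio. Wild-type cells had 135 FPKM with doxycycline and 139 FPKM untreated. *TRP4* thus moved to the 4th highest level of the 10 genes in doxycycline-treated tetO-*GLN4*, against the 7th in untreated tetO-*GLN4*. The 4th and the neighbouring ranks overlapped in their intervals.

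*TRP1* (YDR007W, forward strand, locus given above), a familiar plasmid marker that encodes phosphoribosylanthranilate isomerase, was not called by the intervals. It had 199 FPKM (154 to 244) with doxycycline and 137 FPKM (107 to 168) untreated in tetO-*GLN4*, a log2 ratio of 0.54 ± 0.23. Wild-type cells had 150 FPKM with doxycycline and 149 FPKM untreated. The tetO-*GLN4* ratio was over 2 SDs from 0, so under that looser rule 8 of the 10 genes were higher, against 21.8% of all genes. The overlapping *YDR008C* had a log2 ratio of 0.47, also not called.

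*TRP5* (YGL026C, chromosome VII 446412 to 448535, reverse strand) encodes tryptophan synthase, the last step. It had 531 FPKM (406 to 656) with doxycycline and 246 FPKM (188 to 305) untreated in tetO-*GLN4*, and rose 2.16-fold (log2 1.11 ± 0.24). Wild-type *TRP5* stood at 285 FPKM with doxycycline and 283 FPKM untreated. On the tryptophan branch, then, 4 of 5 genes rose, and on the trunk 3 of 4, against 15% of all genes.

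**Figure D2:**
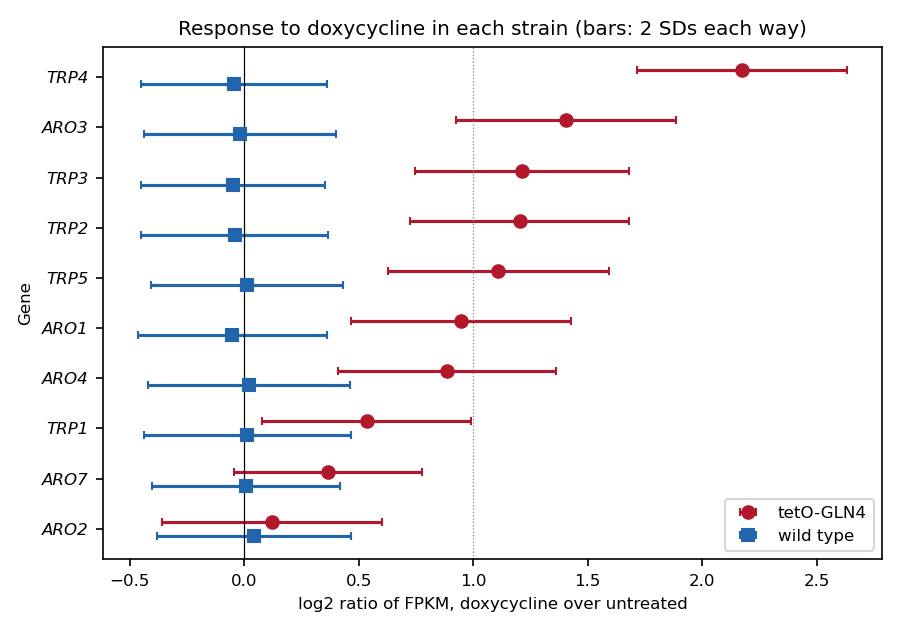
Log2 ratio of FPKM, doxycycline over untreated (horizontal axis), for each gene in tetO-*GLN4* (circles, upper of each pair) and the wild type (squares); bars are 2 SDs each way and the dotted line marks a 2-fold rise. *TRP4* stands farthest right at 2.17, *ARO2* lies at 0.12, and all wild-type values lie between -0.05 and 0.04.

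In the wild type none of the 10 genes was called in either direction, against 0.152% of 6560 genes. None was over 2 SDs from 0 either, a rule that 14 genes passed upward and 10 downward among all genes. The log2 ratios of the 10 genes ran from -0.05 to 0.04 with a median of -0.00424, and 5 of them were above 0. Their SDs ran from 0.20 to 0.23.

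The effect of doxycycline was then compared between the strains directly, as the tetO-*GLN4* log2 ratio minus the wild-type log2 ratio. The difference was over 2 SDs for 7 of the 10 genes, against 15.5% of 6538 genes that were higher by this rule. These were the 7 that rose, with differences from 0.86 ± 0.32 in *ARO4* to 2.22 ± 0.31 in *TRP4*. It was 0.08 for *ARO2* (interval -0.56 to 0.72), 0.36 for *ARO7* (-0.22 to 0.94) and 0.52 for *TRP1* (-0.12 to 1.16). For these 3 the intervals allow a difference as well as none. The median difference was 1.05 for the 10 genes and 0.00367 for all genes.

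The 10 genes were not uniform among themselves. Of 45 pairs compared by their tetO-*GLN4* log2 ratios, 22 differed by over 2 SDs, with no adjustment for the number of pairs. *TRP4* differed from each of the other 9 genes and *ARO2* from 7. *ARO4* and *ARO1* each differed from *TRP4* and *ARO2* alone. The genes that held TGACTC within 300 bases had a median log2 ratio of 1.21 (4 of 4 rose) and the other 6 a median of 0.71 (3 of 6 rose). Among all genes with a usable ratio, 144 of 463 with the core rose (31.1%), against 810 of 5378 without it (15.1%). *ARO3* and *TRP5* rose without a match within 500 bases.

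**Figure D3:**
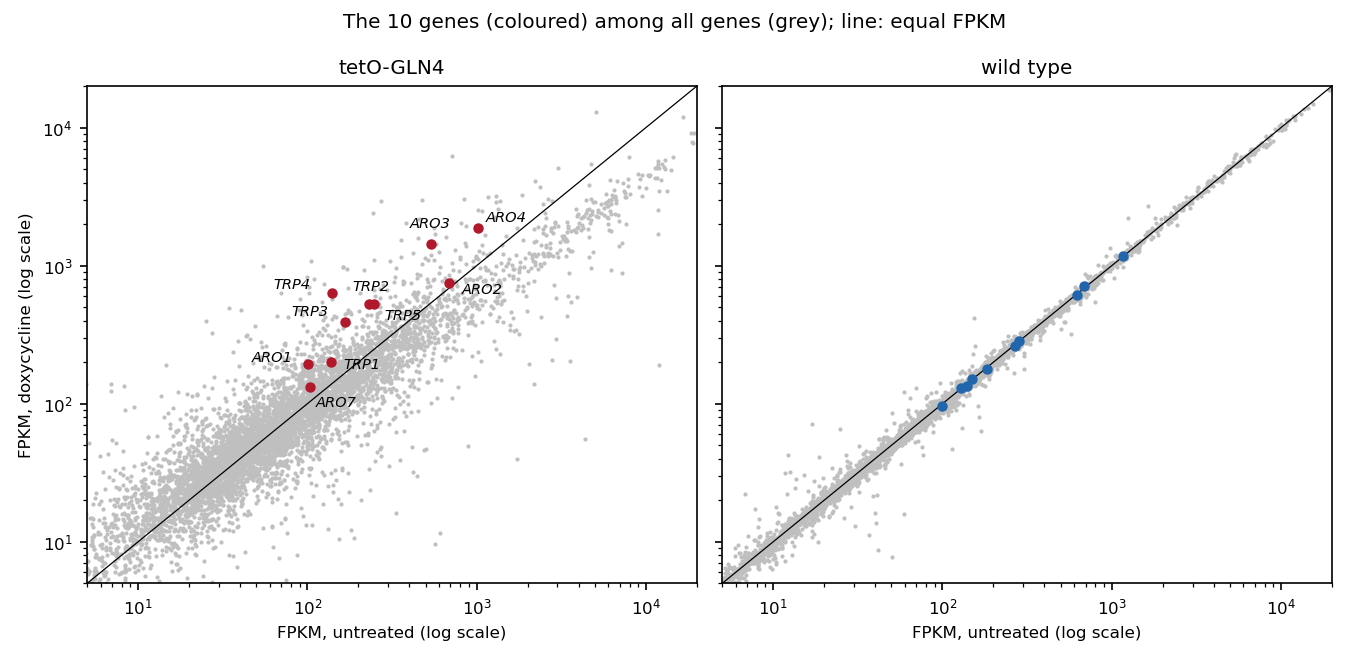
FPKM with doxycycline (vertical, log scale) against FPKM untreated (horizontal, log scale) for all genes above 0 in both conditions (grey) and the 10 pathway genes (coloured) in each strain; the line marks equal FPKM, and genes beyond the ends of the axes are not drawn. In tetO-*GLN4* the 10 genes lie above the line and many genes of high FPKM lie below it, whereas in the wild type they lie along it.

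Summed over the 10 genes, the FPKM was 6652 ± 314 with doxycycline and 3364 ± 166 untreated in tetO-*GLN4*, 1.98-fold higher. That was 0.391% of the summed FPKM of all genes with doxycycline and 0.128% untreated. The wild type had 3732 ± 168 with doxycycline and 3717 ± 166 untreated, which was 0.153% of the total with doxycycline and 0.152% untreated. The SDs of these sums take the errors of the 10 genes as independent. Errors shared by the genes, which come from the same cultures, would make them larger. Many genes of high FPKM were lower with doxycycline in tetO-*GLN4*, and the FPKM-weighted mean of the log2 ratios was -0.67. When that mean is set to 0, the median over all genes becomes 0.68 and that of the 10 genes 1.70. By intervals on that scale, chosen after seeing the data, 10 of the 10 genes were higher, but so were 45.9% of all genes, with 3006 genes higher and 280 lower in place of 984 and 1052.

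The order of levels changed little apart from *TRP4* and *ARO3*. With doxycycline in tetO-*GLN4*, *ARO4* and *ARO3* overlapped at the top and were apart from *ARO2*, and *TRP4*, *TRP5*, *TRP2* and *TRP3* followed with each overlapping the next. *TRP3* was apart from *TRP1*, below which *ARO1* and *ARO7* overlapped. In untreated tetO-*GLN4*, *ARO4*, *ARO2* and *ARO3* formed the upper group, apart from *TRP5* and the 6 genes below it, whose neighbours all overlapped. The wild-type orders were alike in both conditions, with *ARO4* apart from *ARO2* and *ARO3* apart from *TRP5*.

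Since Gln4 charges glutamine tRNAs, the glutamine codons (CAA and CAG) of the 10 genes were counted. They made up 1.84% of codons in *TRP4* to 4.14% in *TRP2*, with a median of 3.18%, against a median of 3.69% over 6002 genes. Of the 10 genes 7 were below that median. *TRP4*, with the highest log2 ratio, had 4 CAA and 3 CAG codons among 380, and *ARO7*, not called, had 5 in 256.

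The genes around the pathway were taken from 6 lists of textbook members. On the branch from chorismate to phenylalanine and tyrosine beyond *ARO7*, 4 of 4 genes rose with doxycycline in tetO-*GLN4*, against 15% of all genes. *PHA2*, which encodes prephenate dehydratase, had 105 FPKM with doxycycline and 48.0 FPKM untreated (log2 1.13), and *TYR1*, for prephenate dehydrogenase, 191 FPKM with doxycycline and 75.1 FPKM untreated (log2 1.35). *ARO8*, for an aromatic aminotransferase, had 1036 FPKM with doxycycline and 475 FPKM untreated (log2 1.12). *ARO9*, whose aminotransferase is known from the breakdown of aromatic amino acids, had 207 FPKM with doxycycline and 1.69 FPKM untreated, a log2 ratio of 6.93 ± 0.29. The list's median was 1.24, and all 4 were also higher on the weighted scale described above, as were 45.9% of all genes.

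The regulators differed. *GCN4* mRNA had 2942 FPKM with doxycycline and 2798 FPKM untreated (log2 0.07), and *GCN2* mRNA 16.3 FPKM with doxycycline and 16.1 FPKM untreated (log2 0.02). Neither was called, although on the weighted scale described above both were higher, at 0.75 and 0.69, as were 45.9% of all genes. Gcn4 is known to be controlled mainly in translation, which these data do not measure. *BAS1*, an activator of purine and histidine genes, had 72.0 FPKM with doxycycline and 34.2 FPKM untreated (log2 1.08, rose). *ARO80*, the activator of *ARO9*, had 21.8 FPKM with doxycycline and 11.5 FPKM untreated (log2 0.92, rose).

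Upstream of the pathway the lists were mixed, and their counts are read against the 15% of all genes that rose and the 16.1% that fell, or 45.9% higher and 4.27% lower by intervals on the weighted scale. Of 9 genes for erythrose 4-phosphate and phosphoribosyl pyrophosphate 2 rose and 2 fell, against 4 higher and none lower on the weighted scale. *NQM1*, a paralogue of transaldolase, had 135 FPKM with doxycycline and 8.26 FPKM untreated (log2 4.03), and *TAL1*, the main transaldolase, 707 FPKM with doxycycline and 1761 FPKM untreated (log2 -1.32). Of 5 genes that supply serine and glutamine 2 fell: *GLN1*, for glutamine synthetase, with a log2 ratio of -1.17, and *SER3*, for phosphoglycerate dehydrogenase, with -0.85. On the weighted scale 2 of these 5 were higher, *SER1* (0.85) and *SER33* (0.95), named here after their values were seen, and none was lower. *TAL1*, *GLN1* and *SER3* stayed below 0 on that scale, at -0.64, -0.50 and -0.17, with intervals that overlapped. *TAL1* and *GLN1* were still over 2 SDs below 0 there, and *SER3* was not.

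Downstream, none of 10 genes that use tryptophan or chorismate rose and 2 fell, a share near that of all genes: the kynurenine pathway genes *BNA1* (log2 -1.03) and *BNA5* (log2 -1.09). *WRS1*, for the cytosolic tryptophanyl-tRNA synthetase, had 262 FPKM with doxycycline and 405 FPKM untreated (log2 -0.63, not called), and it is at 0.04 on the weighted scale, where *BNA1* and *BNA5* are at -0.36 and -0.42 and not called. Of these 10 genes 2 were higher by intervals on the weighted scale, *ABZ1* (0.90) and *MSW1* (1.00), named after their values were seen, and 4 were by 2 SDs, with none lower by either rule. Of 5 amino acid permeases 2 rose and 1 fell, against 3 higher and none lower on the weighted scale. Over all genes 15% rose and 16.1% fell, and 45.9% were higher and 4.27% lower by intervals on the weighted scale. *BAP2*, for branched-chain amino acids, had 1153 FPKM with doxycycline and 355 FPKM untreated (log2 1.70). *TAT2*, the high-affinity tryptophan permease, had 122 FPKM with doxycycline and 102 FPKM untreated (log2 0.26, not called; 0.93 on the weighted scale, where it was higher), and *TAT1*, for tyrosine and tryptophan, 111 FPKM with doxycycline and 186 FPKM untreated (log2 -0.75, fell; -0.08 on the weighted scale, not called). In the wild type no gene of the 6 lists was called.

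**Figure D4:**
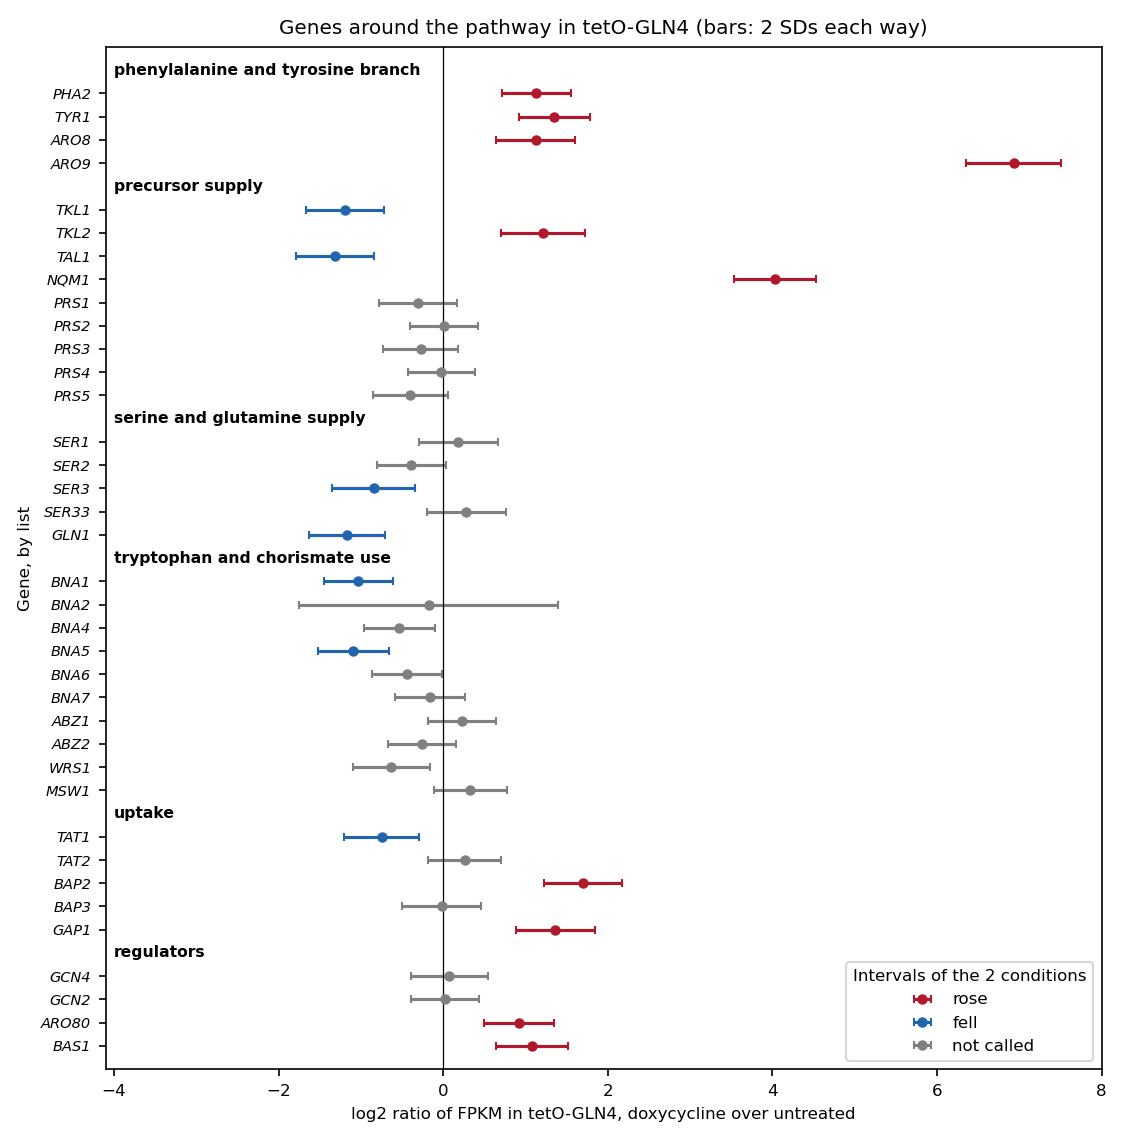
Log2 ratio of FPKM in tetO-*GLN4*, doxycycline over untreated (horizontal axis), for the genes of the 6 lists around the pathway; bars are 2 SDs each way and colours give whether the deposited intervals of the 2 conditions lay apart. All 4 genes of the phenylalanine and tyrosine branch lie above 1, with *ARO9* at 6.93, and the lists for supply and use of the pathway's compounds lie on both sides of 0.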

How the data were processed

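mRNA of 12 yeast cultures in 4 groups of 3 was sequenced with a strand-marking kit. The deposited FPKM values were made by the authors with TopHat (1.4.0 per the submitters' processing notes), Cufflinks and Cuffdiff on build sacCer3 (R64); versions of the last pair are not given in the sources used here. Cuffdiff normalized the 2 conditions of a strain together, combined the 3 cultures into 1 value and gave the 95% interval. The authors' tables of fold changes, p-values and q-values hold their own tests and were not used; columns of per-sample values left unused numbered 0. Read depth is unknown: low FPKM values did not fall on whole-read steps (at best 15.2% to 17.7% of 198 low genes within 0.05), so no count test was run. Depth limits the values only through the deposited intervals.

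Ratios were computed without a pseudocount for genes with status OK and FPKM above 0 in both conditions. The distance from an FPKM to its upper bound was taken as 2 SDs. A difference between log2 ratios was called over 2 SDs. Motifs and codons were read from the R64 genome with its RefSeq annotation, for 6030 matched locus tags. The interval rule was tested on simulated data whose spread was set from the deposited intervals. That test cannot show whether the intervals cover the spread between cultures. All 10 genes are named, and from each other list the highest and lowest called genes, the whole phenylalanine and tyrosine branch, *TAT1*, *TAT2*, *WRS1* and the regulators. The genes and lists were chosen with earlier results of these data known. The alternatives tried were an added 1 or 0.1 FPKM, a minimum FPKM of 1, 2 centrings and a 2-fold rule. Intervals widened 1.5 times and other motifs were also tried. A further rule divided each log2 ratio by its SD (z value) and took Benjamini-Hochberg adjusted normal p-values under 0.05. Those p-values rest on the deposited intervals alone. Python 3.11.15, pandas 2.3.3, numpy 2.4.6, scipy 1.17.1 and matplotlib 3.10.9 were used.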

Additional observations from a re-analysis of the deposited data

Results flagged for a closer look

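The response to doxycycline differed between the strains by over 2 SDs for 7 of the 10 genes. As the tetO-*GLN4* log2 ratio minus the wild-type log2 ratio, the difference was 1.42 ± 0.32 (SD) for *ARO3*, 0.86 ± 0.32 for *ARO4* and 1.00 ± 0.32 for *ARO1* on the common pathway. On the tryptophan branch it was 1.24 ± 0.31 for *TRP2*, 1.26 ± 0.31 for *TRP3*, 2.22 ± 0.31 for *TRP4* and 1.10 ± 0.32 for *TRP5*. The SDs come from the deposited intervals of combined cultures. With intervals 1.5 times as wide the count was 6, without *ARO4*, and 8.11% of all genes passed. Centred on each strain's FPKM-weighted mean it was 10, and 46.3% of all genes passed.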

How the results depend on the processing

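The count of genes that rose in tetO-*GLN4* was 7 as reported. It was 8 (*TRP1* added) with adjusted p-values of the z values, and with a 2-SD rule on ratios centred on the median. The 2-SD rule without centring also gave 8, and centring on the median under the interval rule left all 10 calls the same. The change of rule and not the centring thus added *TRP1*. The count was 5 with intervals widened 1.5 times or a 2-fold rule, which *ARO4* and *ARO1* missed. Over all genes the centred 2-SD rule gave 1408 higher and 1537 lower, and the uncentred one 1429 and 1511. Adjusted p-values of the z values gave 1236 and 1318, widened intervals 495 and 550, and the 2-fold rule 689 and 660. Centred on the FPKM-weighted mean, all 10 genes were over 2 SDs (3734 genes higher and 414 lower in all) and their median was 1.70, beside 0.68 for all genes; *ARO2*, *ARO7* and *TRP1* then stood at 0.79, 1.04 and 1.21. As a share of the summed FPKM, a scale added after seeing the data, the median was 1.65, beside 0.63 for all genes. None of the 10 genes was called in the wild type under any alternative. With pseudocounts of 1 and 0.1 the median in tetO-*GLN4* was 1.02 and 1.03; the interval rule was not rerun with them. No paired analysis was possible because the 3 cultures of a condition are combined into 1 value, and for the same reason no culture could be left out. The limit set by counting depth is therefore known only through the deposited intervals, and the spread between cultures is not known here.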

Other observations

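Genes next to the pathway genes on the chromosome went in both directions in tetO-*GLN4*, and more of them rose than fell. Of 20 neighbours 9 rose with doxycycline, 4 fell and 7 were not called, with a median log2 ratio of 0.46 against 0.01 for all genes. Over all genes 15% rose and 16.1% fell. Beside *ARO7*, which was not called, *YMC1* and *JID1* both rose, with log2 ratios of 1.71 and 1.69. Both neighbours also rose beside *ARO3*, *ARO4* and *TRP1*. Beside *TRP4* the neighbours *TRR1* and *SPC110* had log2 ratios of 0.14 (not called) and -0.75 (fell). The open reading frame *YDR034W-B* beside *ARO3* had 308 FPKM with doxycycline and 43.7 FPKM untreated.

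Without doxycycline the 10 genes were slightly lower in tetO-*GLN4* than in the wild type once the median of all genes (log2 0.15) was taken off. The log2 values ran from -0.46 in *ARO7* to -0.13 in *ARO1* with a median of -0.31. The strains were normalized separately, so these are values with no test.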
